A study of Mus musculus with 4 samples.

Results

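The genes of the aminoacyl-tRNA synthetases were followed in lung endothelial cells (ECs) with and without ADAR1, the enzyme that edits adenosine to inosine in double-stranded RNA. The 36 genes were taken by name, 20 for the enzymes of the cytosol and 16 for those of the mitochondrion, whose symbols end in 2, out of 24421 genes in the count table. The cells came from 2 male C57/BL6 mice, 2 weeks old and from independent litters, that carried the inducible ADAR1 knockout (i-KO), and were cultured after selection with antibodies to CD31 and ICAM-2. Cells of each mouse were split into a dish given hydroxytamoxifen (TM), which switches on a Cre recombinase that cuts out the floxed end of the ADAR1 gene, and a non-induced dish (CON), which made 4 libraries, a CON and a TM one for mouse EC1 and for mouse EC2, or 2 groups of n = 2 that are paired by mouse. All 4 libraries carried the floxed gene, and only the TM dishes received the drug, so that the drug and the deletion cannot be told apart. RNA was depleted of ribosomal RNA and total RNA was sequenced.

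Aminoacyl-tRNA synthetases join each amino acid to its tRNA, the step that sets the genetic code, and cells keep separate sets for the cytosol and the mitochondrion. In the cytosol, several of them are held with scaffold proteins in the multisynthetase complex. Many cytosolic synthetase genes are known targets of ATF4, the transcription factor that is made when the integrated stress response slows translation, whereas the mitochondrial genes mostly are not. The mitochondrial genes therefore served as an inner control for the cytosolic ones.

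Each gene was read in the same RNA by 2 measures. The first was the deposited gene count, of which 1095488 to 1778732 per library fell on genes, only 0.823% to 0.858% of all reads in the count tables. Whether these counted reads came from the strand of the gene was not tested. The second was the read depth at bases listed by the variant caller inside a gene's exons, taken as the median over the listed bases and scaled to 100000000 reads of the library. This scaled depth counts reads of either strand and is already a level per base, so that it can be compared between genes. A base was listed only where at least 1 read differed from the reference, which favours the more deeply read bases. The members had 2212 such exonic bases, 1928 of them in cytosolic genes. In either measure, fewer cells of a type and less RNA per cell cannot be told apart, and with 2 mice the p-values measure the spread between these libraries only.

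The targeted gene was checked first. In exons 12 to 14 of Adar, inside the floxed stretch, the scaled depth was 109 in EC1 CON and 118 in EC2 CON, against 31.6 in EC2 TM, and EC1 TM had no listed base there, on 0 to 3 listed bases per library. Over exons 1 to 11 it was instead higher in TM, at 504 against 115 in EC1 and 463 against 122.6 in EC2. In exon 15, which the study also counts as deleted, it was higher in TM as well, at 320.2 against 74.4 in EC1 and 403 against 109 in EC2, so that the check followed the labels in exons 12 to 14 alone. The labelled cell type was checked on its markers, and 8 of 8 endothelial ones had listed bases in every library, although their sum was lower with TM, going from 14079 to 11866 in EC1 and from 17657 to 13184 in EC2. Each of the 8 was lower in both mice, and limma called 0 of them, 4 having an unadjusted p under 0.05. Of 5 leukocyte markers 1 or 2 had a listed base, with a sum of 20.9 to 36.8, and Ptprc, Itgam and Cd3e had none. Of 5 epithelial markers 1 or 2 had one, with a sum of 30.7 to 40.3. Of 6 mesenchymal markers, 5 had a listed base in EC1 CON and 3 in EC1 TM, against 6 and 5 in EC2. Their sum, to which a marker without a listed base adds nothing, fell with TM. It went from 459 to 117 in EC1 and from 657 to 199 in EC2. Each marker listed in both libraries of a mouse was lower in TM, except Pdgfra in EC2 (2.09 to 11.1). Acta2 had a log2 fold change of 0.23 in gene counts. The part of either shift in markers in the results on synthetases was not tested.

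In exonic depth, cytosolic synthetase genes were higher in TM and mitochondrial ones did not pass the test. Of the 20 cytosolic genes, 19 had at least 3 listed bases in every library and were tested with limma over 6836 genes, and 12 of these 19 rose and 0 fell at an adjusted p of 0.05. Over all genes tested, 6.39% rose and 5.44% fell. The median log2 change of the cytosolic genes was 1.05, beside 0.01 over all genes. With each library centred on its median in place of total reads, the split over all genes turned from 437 higher and 372 lower to 568 higher and 874 lower, and 14 cytosolic genes rose and 1, Qars, fell. Of the 16 mitochondrial genes 5 were tested, 0 passed the adjusted threshold in limma and 1 had an unadjusted p under 0.05, with a median log2 change of 0.48. Both TM libraries lay above both CON libraries in 17 of the 19 cytosolic genes and in 3 of the 5 mitochondrial genes, a pattern that 27.2% of all genes showed, and both lay below in 1 cytosolic gene and 0 mitochondrial genes, against 25.1% of all genes.

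**Figure D1:**
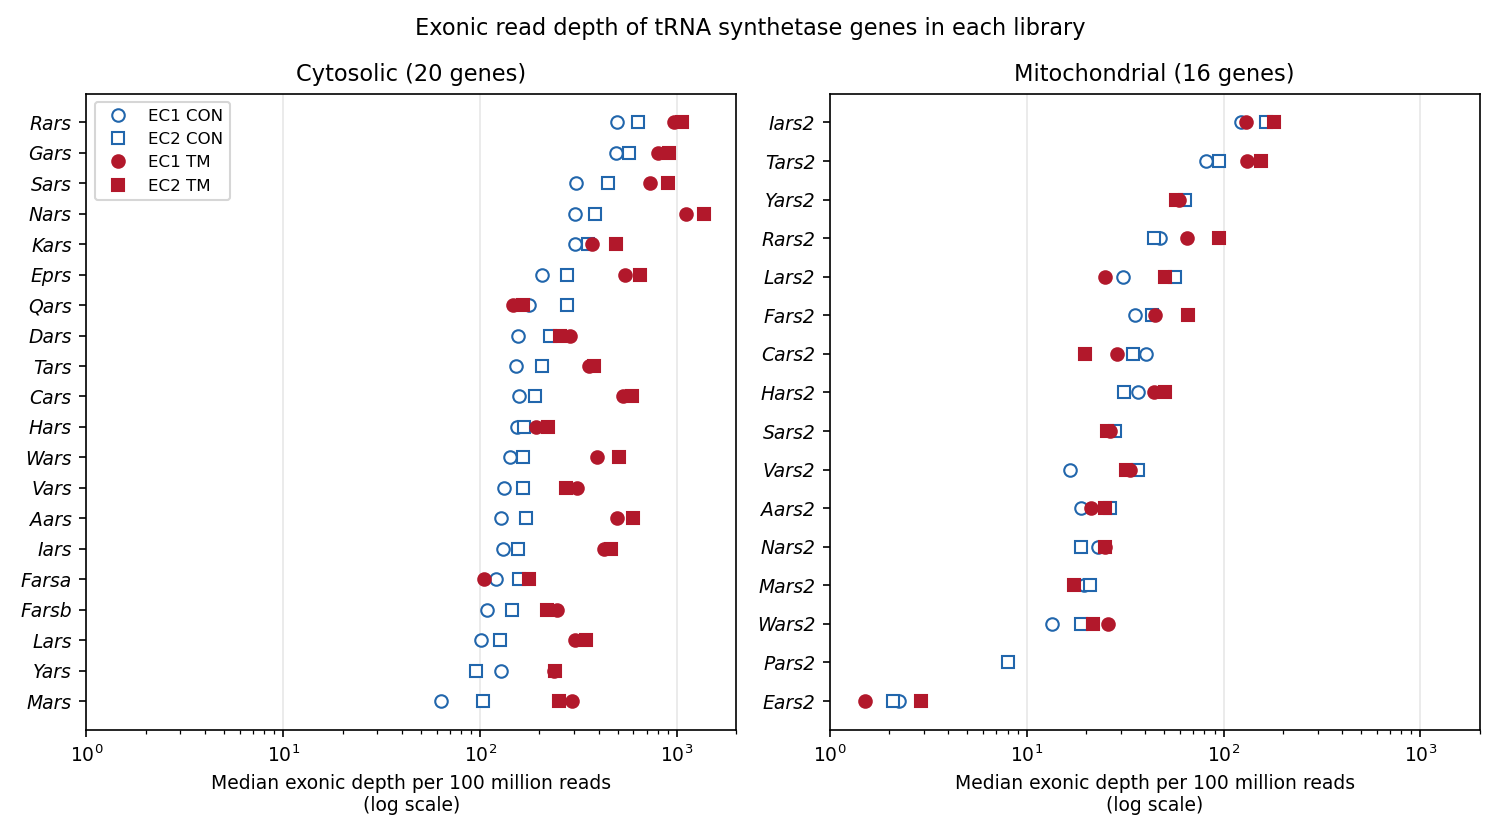
Median exonic depth per 100000000 reads on a log axis for the 20 cytosolic (left) and 16 mitochondrial genes (right), ordered by the mean of the CON libraries; open blue points are CON, filled red points are TM, circles are mouse EC1 and squares mouse EC2, and a missing point means no listed base. In the left panel the TM points of most genes stand apart to the right of the CON points, as for Nars at 1110 and 1367 against 301 and 382, whereas in the right panel they mostly mix.

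In the CON libraries, cytosolic genes were read more deeply than mitochondrial ones. The median scaled depth over the 20 cytosolic genes was 153 in EC1 CON and 179 in EC2 CON, from 63.1 for Mars in EC1 to 634 for Rars in EC2. With TM it was 362 in EC1 and 420 in EC2. Over the mitochondrial genes with a listed base, the CON medians were 30.8 for EC1 (13 genes) and 33.1 for EC2 (16 genes). The TM medians were 31.1 for EC1 (14 genes) and 31.8 for EC2 (15 genes). Because the genes differ between libraries, these close medians do not show whether each gene kept its level. Mitochondrial genes listed in both libraries of a mouse had a median fold of 1.17 for EC1 and 1.09 for EC2. The number of listed exonic bases in cytosolic genes rose alongside, from 300 to 633 in EC1 and from 377 to 890 in EC2, and in mitochondrial genes from 49 to 56 and from 94 to 107. EC2 TM is also the largest of the 4 libraries.

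The largest changes were in genes for the enzymes of alanine, asparagine, methionine, cysteine and isoleucine. Aars, which charges the tRNA of alanine, went from a scaled depth of 127 in CON to 495 in TM in EC1, and from 170.0 to 598 in EC2. It stood 3.90-fold higher with TM in EC1 and 3.52-fold higher in EC2, a log2 change of 1.89 (95% interval 1.31 to 2.46, limma adjusted p = 1.41e-05), and only 126 of the 6836 genes tested had a larger one. Nars, for asparagine, was the most deeply read member in TM. It had 301 and 382 in the CON libraries of EC1 and EC2 and 1110 and 1367 in their TM libraries. Its log2 change was 1.86 (1.27 to 2.45, limma adjusted p = 2.85e-05).

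Mars, for methionine, the amino acid that starts every protein, rose from the lowest CON level among the cytosolic genes, that of EC1. It went from 63.1 to 293 in EC1 and from 103 to 249.9 in EC2, so that the 2 mice differed in size, 4.65-fold against 2.41-fold. The log2 change was 1.74 (1.15 to 2.34, limma adjusted p = 7.53e-05). Cars, for cysteine, had a scaled depth of 157 and 189 in CON and 531 and 588 in TM, a log2 change of 1.70 (1.13 to 2.26). Iars, for isoleucine, had 130.0 and 155 in CON and 427 and 462 in TM, a log2 change of 1.64 (1.08 to 2.21). For both, the TM libraries lay closer to each other than to either CON library.

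Wars and Lars followed. Wars, for tryptophan, is also known as an interferon-induced gene. Its scaled depth was 141 and 164 in CON and 390.0 and 509.6 in TM, with a log2 change of 1.55 (0.98 to 2.12). Lars, whose enzyme charges leucine and takes part in leucine sensing, had 101.1 and 125 in CON and 302 and 343 in TM, with a log2 change of 1.52 (0.95 to 2.08). Eprs, the joint enzyme of glutamate and proline, had 207 and 275 in CON and 543 and 647 in TM, a log2 change of 1.31 (0.74 to 1.89). In each of these 3 genes the groups did not overlap, and the limma adjusted p was 0.000205 for Wars, 0.000241 for Lars and 0.00156 for Eprs.

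Sars, Tars, Vars and Farsb rose by less. Sars, for serine, had a scaled depth of 306 and 447 in CON and 725 and 899 in TM, and a log2 change of 1.13 (0.53 to 1.72). Tars, for threonine, had 153 and 207 in CON and 356 and 379 in TM, and a log2 change of 1.05 (0.48 to 1.62). For Vars, the valine enzyme, the levels were 133 and 165 in CON and 308 and 272 in TM, and for Farsb, the beta subunit of the phenylalanine enzyme, 109 and 145 in CON and 245 and 218 in TM. In these 2 genes, as in Mars, EC1 TM exceeded EC2 TM although EC1 CON was the lower CON library, and the log2 changes were 0.97 (0.40 to 1.53) and 0.88 (0.31 to 1.45). The adjusted p in limma was 0.00957 for Sars, 0.0116 for Tars, 0.0192 for Vars and 0.0366 for Farsb.

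**Figure D2:**
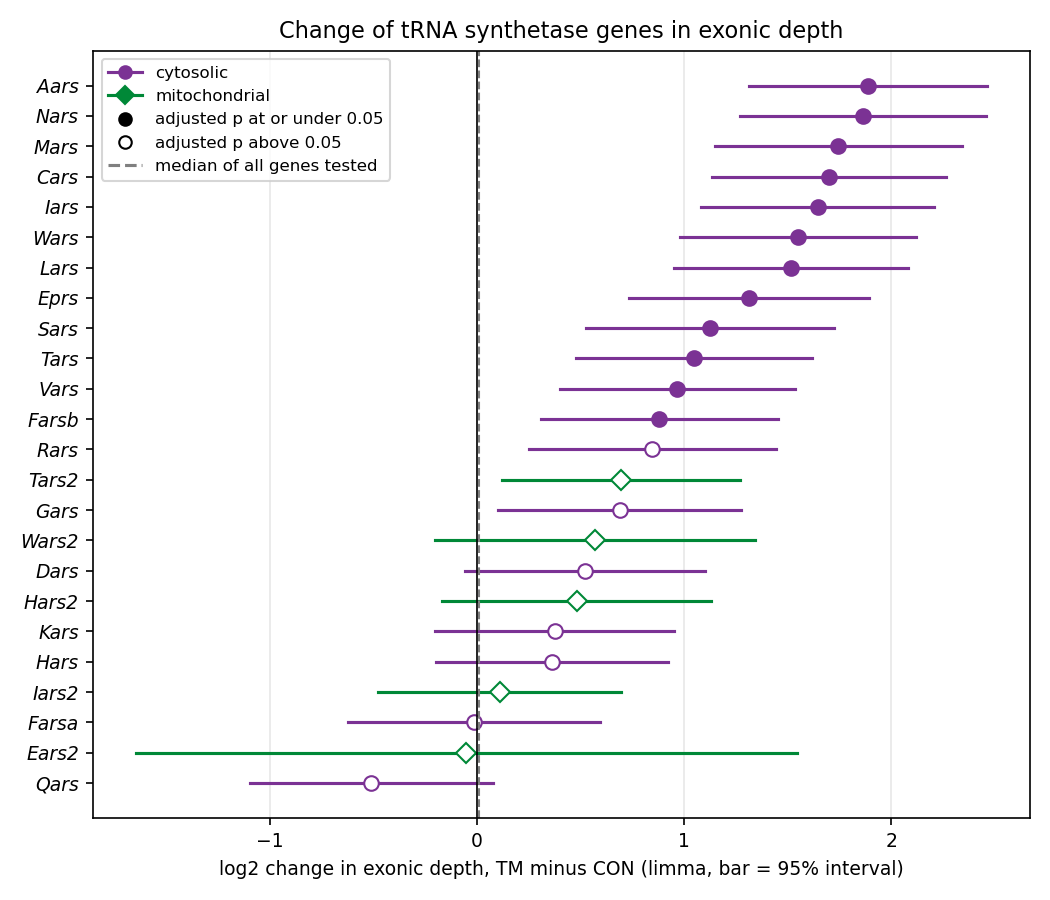
Log2 change in exonic depth, TM minus CON, for the 24 genes tested, with 95% intervals from limma; circles are cytosolic and diamonds mitochondrial genes, filled symbols passed the adjusted threshold, and the dashed line marks the median of all genes at 0.01. The 12 filled circles run from 0.88 for Farsb to 1.89 for Aars, and the 5 diamonds from -0.05 for Ears2 to 0.70 for Tars2.

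Of these 12 genes, 7 (Aars, Cars, Iars, Lars, Mars, Nars and Wars) passed with any 1 of the 4 libraries left out. Without EC2 TM, Eprs (log2 1.19), Sars (0.97), Tars (1.002), Vars (1.06) and Farsb (0.97) kept their direction without passing. Sars, Tars, Vars and Farsb also missed the threshold without EC1 CON (0.85, 0.83, 0.81 and 0.67) or without EC1 TM (1.28, 1.09, 0.88 and 0.79). Without EC2 CON, Rars stood at 1.02. The median log2 change over all genes moved as well, to 0.17 without EC2 CON and -0.14 without EC1 CON. It was 0.11 without EC1 TM and -0.10 without EC2 TM, against 0.01 with all libraries, and these fits were not centred on the median. Such fits hold 1 library in a group, which is assumed to vary like the others.

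The other 7 cytosolic genes tested did not pass. Rars, for arginine, and Gars, for glycine, were the most deeply read genes of the set in CON. Rars had 496 and 634 in CON and 959.8 and 1059 in TM, a log2 change of 0.85 (0.25 to 1.44, limma adjusted p = 0.0565). Gars had 489.9 and 567 in CON and 795 and 908 in TM, a log2 change of 0.69 (0.10 to 1.27, adjusted p = 0.124). With the mouse as a replicate block both passed in limma, at an adjusted p of 0.0119 for Rars and 0.0192 for Gars, and the cytosolic genes called became 14 of 19, while the calls over all genes went from 437 higher and 372 lower to 663 and 663.

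Dars, Hars and Kars, for aspartate, histidine and lysine, had log2 changes of 0.52 (-0.06 to 1.098), 0.36 (-0.20 to 0.92) and 0.37 (-0.20 to 0.95). In Dars the mice differed, with a fold of 1.83 in EC1 and 1.12 in EC2. Farsa, the alpha subunit that pairs with Farsb in 1 enzyme, had 120.2 and 157 in CON and 105 and 177 in TM, a log2 change of -0.01 (-0.62 to 0.59). The groups overlapped in Farsa, unlike in Farsb. Qars, for glutamine, was the 1 cytosolic gene with both TM libraries below both CON libraries. It had 177 and 276 in CON and 146 and 165 in TM, a log2 change of -0.51 (-1.09 to 0.08, limma adjusted p = 0.288). The difference between Qars and the genes that rose was not tested.

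Yars, for tyrosine, had 1 listed exonic base in EC1 CON and so was not tested. Its scaled depth went from 128 to 236 in EC1 and from 94.8 to 240.4 in EC2, so that TM was above CON in both mice. Taking every gene with a listed base in both libraries of a mouse, all 12 synthetase genes listed as ATF4 targets (Aars, Cars, Eprs, Gars, Iars, Lars, Mars, Nars, Sars, Tars, Wars and Yars) were higher with TM in EC1 and in EC2, with a median fold of 2.87 and 2.64. Of the other 8 cytosolic genes, 6 were higher in EC1 and 7 in EC2, with a median fold of 1.51 and 1.35. In the test, 10 of 11 ATF4 target genes and 2 of 8 other cytosolic genes were called higher, beside 6.39% of all genes. The lists were drawn up with results of these data known, so that this contrast is a description only. Whether ATF4 acted on these genes was not tested.

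Of the 8 enzymes of the multisynthetase complex, 4 were called higher. It holds the enzymes of Dars, Eprs, Iars, Kars, Lars, Mars, Qars and Rars, and Eprs, Iars, Lars and Mars were called higher whereas the other 4 were not, with log2 changes from -0.51 for Qars to 1.74 for Mars. The genes of its scaffold proteins were not called. Aimp1 had a log2 change of 0.27 (-0.31 to 0.86) and Aimp2 of -0.02 (-0.59 to 0.55), and Eef1e1 had no listed base in EC1 CON. Of 16 genes of tRNA maturation, export, modification and related steps, 8 were tested in exonic depth and 0 were called by limma, 2 of them with an unadjusted p under 0.05, with a median log2 change of 0.13. These were Xpot, the exporter of tRNA from the nucleus, at 0.82 (adjusted p = 0.0535), and Trnt1, which adds the CCA end, at 0.86 (adjusted p = 0.0504), and both passed in limma with the replicate block, which called 2 of 8. In gene counts 9 of the 16 were tested and Xpot was the 1 called, at a log2 fold change of 1.40 (edgeR adjusted p = 0.0131), from 36 to 85 counts in EC1 and from 25 to 120 in EC2.

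Among mitochondrial genes, Tars2 and Iars2 were the most deeply read. Tars2 had a scaled depth of 81.2 and 94.8 in CON and 131 and 154 in TM, with TM above CON in both mice, and a log2 change of 0.70 (0.12 to 1.27, limma adjusted p = 0.1102). With the mouse as a replicate block it passed, at an adjusted p of 0.0374, as the 1 mitochondrial gene called. Iars2 had 122.5 and 165 in CON and 131 and 181 in TM, a log2 change of 0.11 (-0.48 to 0.70), with overlapping groups. Hars2 and Wars2 changed by 0.48 (-0.17 to 1.13) and 0.57 (-0.20 to 1.34), and Ears2, whose depth of 1.52 to 2.89 was the lowest of the set, by -0.05 (-1.65 to 1.54). The interval held a log2 change of 1 in 4 of the 5 genes, all but Iars2.

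The other 11 mitochondrial genes had under 3 listed bases in some library. Aars2, Cars2, Fars2, Lars2, Nars2, Rars2 and Vars2 had a value in all 4 libraries. Rars2 rose in both mice, by 1.36-fold and 2.15-fold, and Fars2 by 1.27-fold and 1.52-fold, whereas Cars2 was at 0.711 and 0.568 of its CON level and Lars2 at 0.813 and 0.893. Vars2 went in opposite directions, at 2.02-fold in EC1 and 0.862 in EC2. Mars2, Sars2 and Yars2 lacked a listed base in 1 library, and Pars2 had listed bases in EC2 CON only, at a scaled depth of 8.01. With any number of bases allowed, 9 of 12 mitochondrial genes were higher with TM in EC1 and 8 of 15 in EC2, with a median fold of 1.17 and 1.09, against 18 of 20 and 19 of 20 cytosolic genes with a median fold of 2.33 and 1.92.

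Setting each cytosolic gene against the mitochondrial gene for the same amino acid gave 14 pairs, 11 with values in EC1 and 14 in EC2. The log2 change was larger in the cytosolic gene in 10 of 11 pairs in EC1 and in 11 of 14 in EC2, with a median difference of 0.53 and 1.43. EC1 lacked the pairs of Mars, Sars and Yars, so that these medians are over differing pairs. Cars and Cars2 differed most, by 2.25 in EC1 and 2.46 in EC2, followed in EC2 by Aars and Aars2, at 1.78 in EC1 and 1.89 in EC2. The mitochondrial values rest on few listed bases in CON and TM. Cars2 had 4 and 1 in EC1 and 2 and 2 in EC2, and Aars2 had 2 and 3 in EC1 and 3 and 7 in EC2. Lars and Lars2 differed by 1.88 and 1.62, Nars and Nars2 by 1.75 and 1.43, and Iars and Iars2 by 1.62 and 1.44. In the pair Farsa and Fars2 the mitochondrial gene changed more in both mice, with a difference of -0.54 and -0.43. For Hars and Hars2 and for Rars and Rars2, the sign differed between the mice. Tars and Tars2 lay close, at 0.53 and 0.17. These differences are given as values and were not tested.

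**Figure D3:**
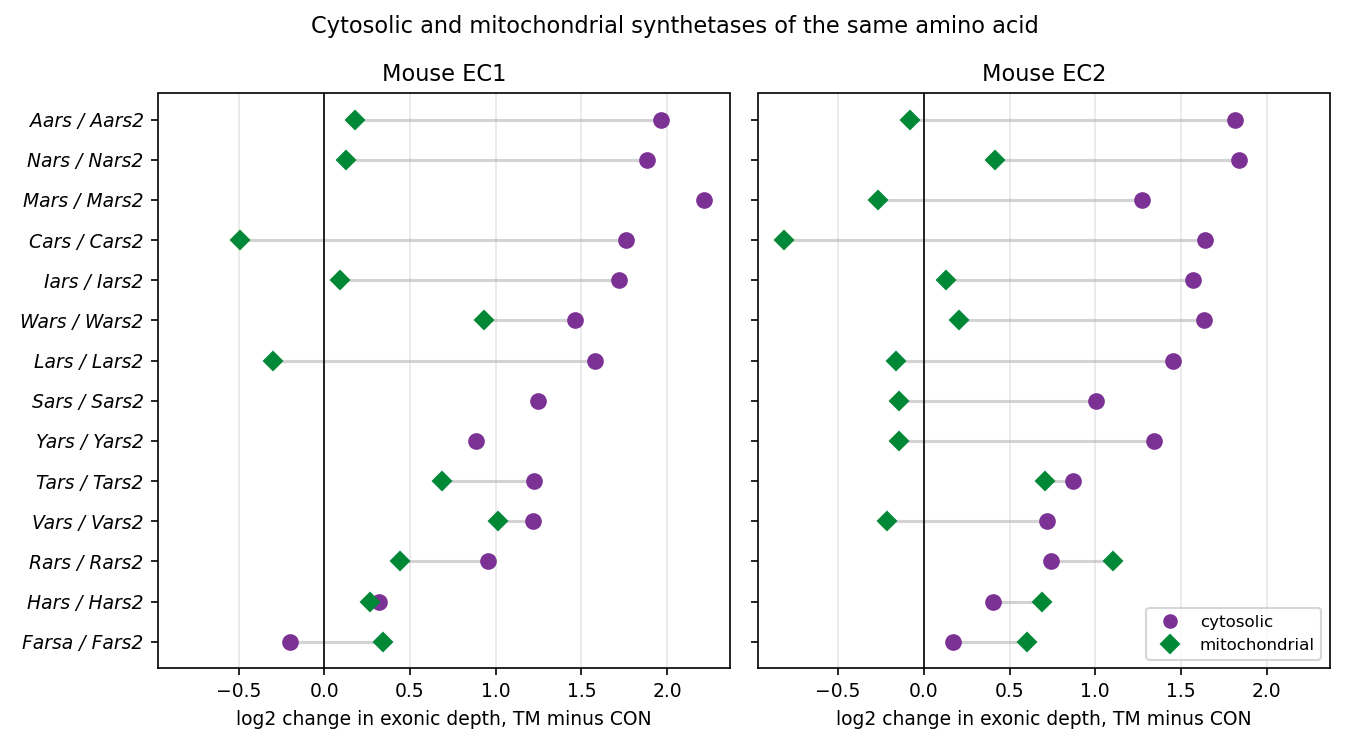
Log2 change in exonic depth, TM minus CON, of the cytosolic (circles) and mitochondrial gene (diamonds) of each amino acid in mouse EC1 (left) and EC2 (right), ordered by the cytosolic change and with no minimum number of listed bases; a missing diamond means no listed base in 1 library. The gap is widest for Cars and Cars2, at 2.25 and 2.46, and is turned around for Farsa and Fars2, at -0.54 and -0.43.

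Comparing only bases listed in both libraries of a mouse removes any shift in which bases are listed. Among genes with at least 3 such exonic bases, 10 of 10 cytosolic genes in EC1 and 13 of 13 in EC2 were higher with TM, with a median log2 ratio of 1.46 and 1.41, beside 0.01 and -0.11 over all genes. Nars stood highest among these genes in both mice, with a median ratio of 4.30-fold over 5 shared bases in EC1 and 3.85-fold over 3 in EC2. Gars and Rars, which missed the threshold, had log2 ratios of 0.94 and 0.85 in EC1 and 0.74 and 0.85 in EC2. The 1 mitochondrial gene with enough shared exonic bases, Ears2 in EC2, had a log2 ratio of 0.47.

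The rise was also seen at bases annotated as intronic. Whether their reads came from RNA not yet spliced was not tested. Of the cytosolic genes with at least 3 shared intronic bases, 7 of 7 in EC1 and 9 of 9 in EC2 were higher with TM, with a median log2 ratio of 1.31 and 1.16, beside -0.07 and -0.16 over all genes. Mars had 11 shared intronic bases in EC1 and 12 in EC2, and all of them were deeper in TM, with a median ratio of 3.28-fold and 3.50-fold. Yars, which had too few exonic bases to be tested, had 10 and 8 shared intronic bases, all deeper in TM, at 2.88-fold and 3.36-fold. Tars stood at 2.44-fold and 2.71-fold, and Lars at 2.97-fold and 2.63-fold.

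Dars and Farsb were at the low end in introns, as they were in exons. Dars had 49 and 40 shared intronic bases and a ratio of 1.26-fold in EC1 and 1.003-fold in EC2, and Farsb 28 in each mouse with 1.51-fold and 1.15-fold. The 2 mitochondrial genes with enough intronic bases were Rars2, at 1.09-fold and 1.09-fold, and Wars2, at 0.585 in EC1 and 1.70-fold in EC2. Intronic depths were low, with a median of 2 to 9 reads in the CON libraries of the genes named for their introns.

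**Figure D4:**
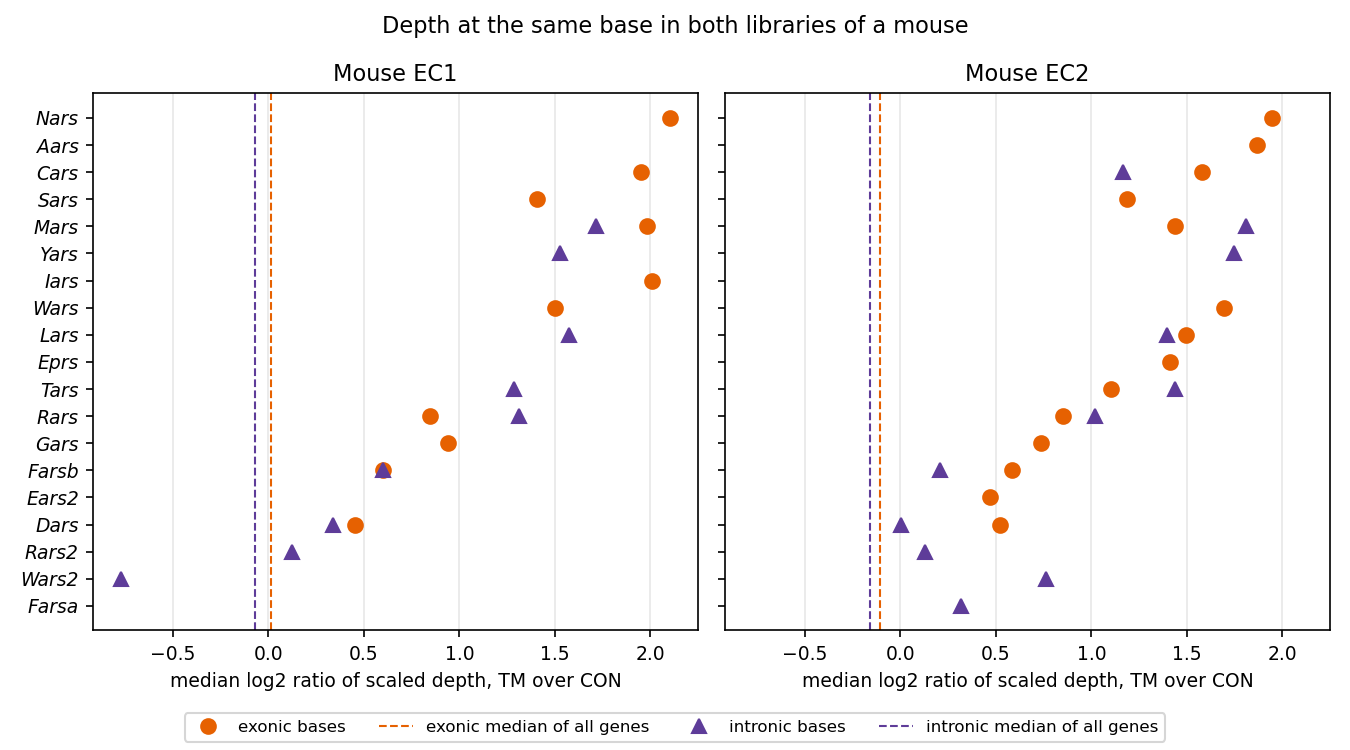
Median log2 ratio of scaled depth, TM over CON, at bases listed in both libraries of mouse EC1 (left) and EC2 (right), for genes with at least 3 such bases in exons (circles) or introns (triangles); dashed lines are the medians over all genes with as many bases. Circles and triangles of cytosolic genes lie to the right of both lines, from 0.45 for Dars to 2.10 for Nars in the exons of EC1.

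In gene counts, the same direction was found in fewer genes. Of 20 cytosolic genes, 17 passed edgeR's filter on low counts, and 7 rose and 0 fell at an adjusted p of 0.05 among 7899 genes tested, of which 4.39% rose and 3.35% fell. The median log2 fold change was 1.24, beside 0.00174 over all genes. The 7 genes were Cars, Eprs, Iars, Lars, Mars, Sars and Vars, and each of them was also called in exonic depth. Of the 16 mitochondrial genes, 4 (Iars2, Tars2, Wars2 and Yars2) passed the filter, 0 were called by edgeR, 0 had an unadjusted p under 0.05 and DESeq2 called 0 of 16, with a median log2 fold change of -0.14.

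Counts were small for most members. Iars went from 2 to 22 counts in EC1 and from 3 to 43 in EC2. Over both mice this is 5 against 65 counts, which after scaling to the counts on genes in each group is a ratio of 10.5 with a counting interval of 4.27 to 33.4, and the fitted log2 fold change of 3.25 (SE 0.67, edgeR adjusted p = 0.00125) rests on these few CON counts. Lars went from 3 to 19 counts in EC1 and from 6 to 34 in EC2, with a log2 fold change of 2.15 (SE 0.63, edgeR adjusted p = 0.0294). Both were higher in each mouse, as in exonic depth. With at most 6 counts in a CON library, both passed edgeR's filter through the TM libraries alone. Where at least 10 counts were required in every library, Cars, Iars, Lars and Rars were not tested. Of the 13 cytosolic genes then tested, 6 rose and 0 fell, beside 262 higher and 244 lower of 6077 genes.

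Cars went from 8 to 26 counts in EC1 and from 16 to 96 in EC2, with a log2 fold change of 1.87 (SE 0.49). Eprs went from 22 to 38 and from 19 to 110, with a log2 fold change of 1.41 (SE 0.41). Sars went from 35 to 59 and from 19 to 108, with a log2 fold change of 1.24 (SE 0.39). In edgeR the adjusted p was 0.0124 for Cars, 0.0294 for Eprs and 0.0432 for Sars, and in all 3 genes both TM libraries held more counts than both CON libraries, EC2 TM by far the most. Exons of Cars share 211 bases with the pseudogene Gm15580 on the opposite strand.

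Mars and Vars had more counts. Vars went from 56 to 158 in EC1 and from 41 to 290 in EC2, a log2 fold change of 1.82 (SE 0.33, edgeR adjusted p = 0.000283). Mars went from 105 to 396 in EC1 and from 64 to 808 in EC2, a log2 fold change of 2.43 (SE 0.32, edgeR adjusted p = 2.82e-06). Mars lies at chr10:127296221-127311786 of mm10 on the minus strand, and its exons share 68 bases with the end of Ddit3, the gene of the stress-induced factor CHOP, on the plus strand. Ddit3 itself went from 136 to 563 counts in EC1 and from 189 to 781 in EC2, a log2 fold change of 1.70 (edgeR adjusted p = 0.000205). The scaled depth of Ddit3 rose by more than that of Mars, 8.41-fold in EC1 and 8.55-fold in EC2. It went from 43.6 to 366 and from 53.6 to 459, on 1 listed base in each CON library. How many reads in the shared bases came from Ddit3 was not tested. With listed bases inside exons on the opposite strand left out, the log2 change of Mars in exonic depth was again 1.74. The intronic bases of Mars, whose depth is given above, lie outside the shared stretch.

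**Figure D5:**
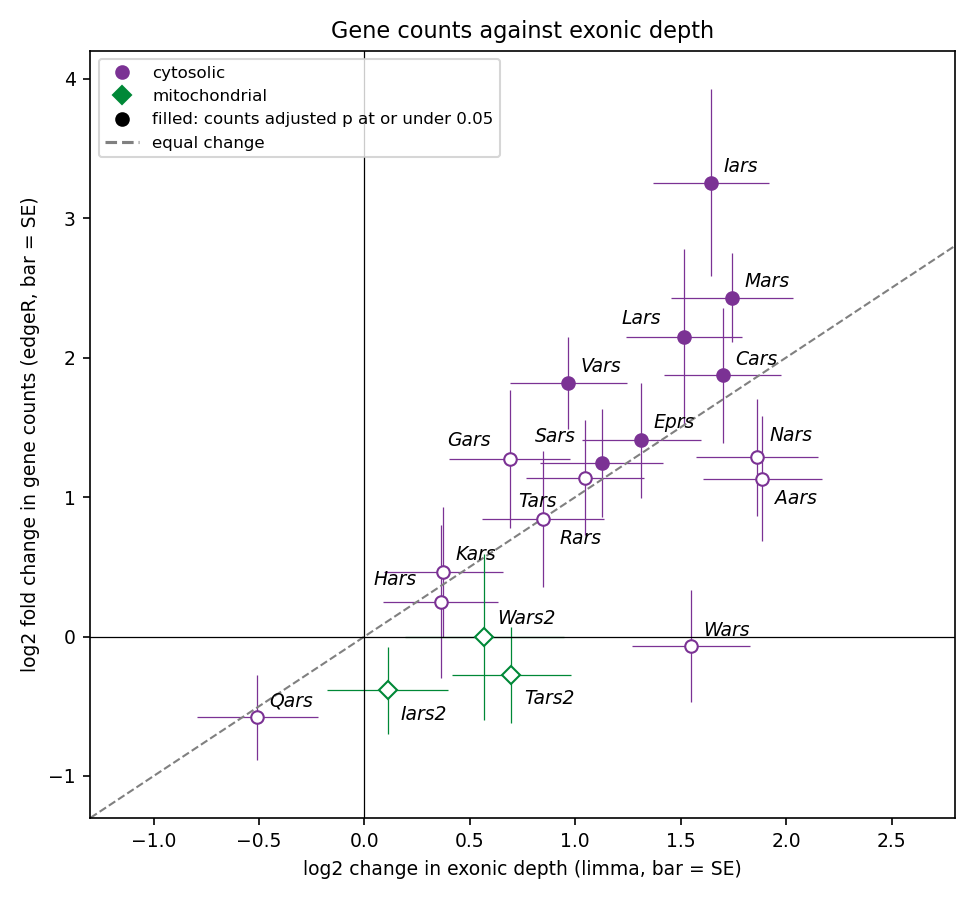
Log2 fold change in gene counts (edgeR, bars are SE) against log2 change in exonic depth (limma, bars are SE) for the 19 genes tested in both; circles are cytosolic and diamonds mitochondrial genes, filled symbols were called in counts, and the dashed line marks equal change. Most circles lie near the line, Iars lies above it at 3.25 against 1.64, and Wars lies below it at -0.07 against 1.55.

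For some genes the count and the depth went apart. Wars went from 53 to 36 counts in EC1 and from 25 to 60 in EC2, a log2 fold change of -0.07 (SE 0.40, edgeR adjusted p = 0.954), against 1.55 in exonic depth, and its direction in counts differed between the mice. Yars went from 271 to 201 counts in EC1 and from 223 to 209 in EC2, a log2 fold change of -0.57 (SE 0.30, edgeR adjusted p = 0.294), while its exonic and intronic depth was higher with TM in both mice. Aars, Gars, Nars and Tars had log2 fold changes of 1.13, 1.27, 1.29 and 1.14 and edgeR adjusted p of 0.129, 0.120, 0.0540 and 0.0889. Qars, with a log2 fold change of -0.58 from 142 and 96 counts in EC1 and 157 and 164 in EC2, went the way of its depth. Rars, Kars and Hars had log2 fold changes of 0.84, 0.46 and 0.25, and Dars, Farsa and Farsb had 1 to 14 counts per library and were not tested.

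With the mouse as a replicate block, edgeR called 9 cytosolic genes higher and 1 lower, and 600 genes higher and 584 lower in all, against 347 and 265. The genes added were Nars (adjusted p = 0.0185), Tars (0.0394) and, in the lower direction, Yars (-0.59, adjusted p = 0.0436). With 1 library left out, the median log2 fold change over all genes ran from -0.02 to 0.05. Of the 7 genes called in counts, Mars and Vars passed in edgeR with any 1 library left out. Without EC2 TM, Iars (3.07), Lars (2.04), Cars (1.096), Eprs (0.88) and Sars (1.12) kept their direction without passing. Cars (1.43), Eprs (1.48) and Lars (1.71) missed the threshold without EC1 CON, and Eprs (1.32), Lars (2.74) and Sars (0.88) without EC2 CON. Without EC1 TM, Lars (2.23) missed it, and Aars (1.54) and Nars (1.72) were added.

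How much of a gene's reads reached the count table differed between members. Set against the read pairs that the exonic depth implies over the length of a gene's exons, the count of genes with no exon on the opposite strand had a median of 0.209% to 0.299% per library. Among the members, Mars stood at 6.29% on average over libraries, Ears2 at 5.55%, Tars2 at 2.92%, Iars2 at 2.04%, Qars at 1.52%, Vars at 1.25% and Wars at 0.754%. The percentage was lowest for Eprs, at 0.0734%. Iars2 shares 2148 exonic bases with genes on the opposite strand, most with Rab3gap2, and Ears2 shares 89 with Ubfd1, whereas Qars, Tars2, Vars and Wars share none. Of the 36 members, 13 share exonic bases with a gene on the opposite strand. Whether the reads counted for such a gene came from it or from its partner was not tested, nor was why counts are so few.

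Promoters of the members were compared next, as many of the cytosolic genes moved together. Of the 36 genes, 27 had an entry among 27025 RefSeq promoters (GRCm38.p6, the 250 bases before and 50 after the start of the gene), 13 cytosolic and 14 mitochondrial. The core of the C/EBP-ATF response element, to which ATF4 binds with a C/EBP partner, was searched on both strands as TGATGNAA. It was found in 5 of the 13 cytosolic promoters and 0 of the 14 mitochondrial ones, against 4.06% of all promoters. The 5 are Aars, Gars, Iars, Tars and Yars, out of 8 genes with an entry among those listed above as ATF4 targets. Their windows are shown with the match in capitals, written along the strand of the gene, because these are the members whose promoter holds the element.
Aars, first match, chr8:111033704-111033763: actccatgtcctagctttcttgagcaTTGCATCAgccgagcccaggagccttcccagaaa
Aars, second match, chr8:111033825-111033884: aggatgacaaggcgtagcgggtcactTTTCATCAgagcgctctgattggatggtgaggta
Gars, chr6:55037945-55038004: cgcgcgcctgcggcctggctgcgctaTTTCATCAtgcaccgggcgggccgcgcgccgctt
Iars, chr13:49682111-49682170: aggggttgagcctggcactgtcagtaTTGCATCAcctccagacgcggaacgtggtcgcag
Tars, chr15:11399640-11399699: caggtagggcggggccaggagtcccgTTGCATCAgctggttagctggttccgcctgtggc
Yars, chr4:129189880-129189939: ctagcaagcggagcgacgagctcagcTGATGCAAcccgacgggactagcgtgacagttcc

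In Aars, Iars, Tars and Gars the element reads in the reverse direction, TTGCATCA or TTTCATCA, and in Yars in the forward direction. The matches begin 112 bases before the start in Aars (its second 9 bases after), 30 before in Gars, 15 before in Tars, 7 after in Iars and 3 after in Yars. Aars had the largest change in exonic depth of the members tested and 2 matches, whereas Gars, with 1, changed by 0.69 and did not pass. The relation between a match and the change was not tested. The promoters of Eprs, Mars and Sars, all called in both measures, held no match of these letters in the window. Cars, Lars, Nars and Wars had no entry and were not searched.

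Other cores were searched in the same windows. The core of NRF1, a regulator of mitochondrial genes, spelled GCATGCGC, was found in 3 of 14 mitochondrial promoters, of Rars2, Vars2 and Wars2, and in 0 of 13 cytosolic ones, against 2.805% of all. That of ETS factors, CCGGAAG, was found in 5 cytosolic and 4 mitochondrial promoters, against 9.12% of all. The core of the interferon-stimulated response element, GAAANNGAA, was found in the promoter of Qars alone among the 27 members with an entry, against 8.57% of all. Wars, the interferon-induced gene named above, was not among these 27. Such matches describe the letters only.

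Editing was examined inside the members, since ADAR1 is the editing enzyme. Sites passed with 5 or more reads, 3 or more of them altered, at a rate between 0.05 and 0.95. They went from 14 to 25 with TM in EC1 and from 30 to 56 in EC2, nearly all of them in introns. A site passes more easily where more reads cover it, and most cytosolic genes were read more deeply in TM. These numbers therefore cannot be read as more editing with TM. Dars alone held 1 of the passing sites in either library of EC1, 17 of the 30 in EC2 CON and 26 of the 56 in EC2 TM. In this gene, 37 listed sites had all their reads altered in both libraries of EC1 and about as many altered as unaltered in EC2, at 52.1% (95% Wilson interval 48.8 to 55.4) in CON and 44.6% (42.3 to 46.9) in TM. The state of these Dars sites thus differed between the mice more than between CON and TM. Several Farsa sites outside SINE repeats were listed for mouse EC2 alone, at altered rates of 0.2 to 0.875. They are included in the numbers of passing sites above. Whether the altered reads at these sites of Dars and Farsa came from editing was not tested. Dars was left out of the shares that follow. At 16 sites in SINE repeats of 6 other members, listed in all libraries, the share of altered reads was 30.3% (23.6 to 38.0) in EC1 CON and 25.4% (21.5 to 29.8) in EC1 TM. In EC2 it was 26.8% (19.5 to 35.7) in CON and 17.4% (14.1 to 21.2) in TM. The share was thus lower with TM in both mice, with overlapping intervals in EC1 and in EC2, and these intervals cover counting error only. Each site also needed an altered read to be listed in a library, which raises the share where reads are few. The CON libraries of EC1 and EC2 held 155 and 112 reads at these sites, against 425 and 438 in TM. Whether editing was lower with TM thus cannot be told from these shares.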

How the data were processed

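RNA from CON and TM cultures of 2 i-KO mice was compared, with n = 2 libraries per group (1 CON and 1 TM library for each of EC1 and EC2). Per the labels and the study's methods, reads (pairs of 101 bases) passed through Trimmomatic 0.38, STAR 2.6.1a on mm10 and HTSeq 0.11.2, and the authors deposited the counts of 24421 genes as they were. The totals, summary rows included, were 131796753 to 207323870 per library, and the summary rows, which held 99.1% to 99.2% of these totals, stayed out of library sizes and tests. For editing, the authors ran BCFtools mpileup, took changes that read as A to G along the strand of the gene, and deposited read counts for each base with the fraction of reads altered. The study's methods state default settings throughout, under which HTSeq counts by strand, and whether this matched the strand of the libraries was not tested.

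Exonic depth per gene was the median of the reads at listed bases in exons and untranslated ends, scaled to 100000000 reads of the count table, with at least 3 bases in every library. Counts were tested by quasi-likelihood in edgeR 4.0.16 with condition as the only term, after filterByExpr and TMM, and depth with limma 3.58.1 (eBayes with trend) in R 4.3.3, with p-values adjusted by Benjamini-Hochberg over every gene in the fit at 0.05. Other settings were a replicate block for the mouse, DESeq2 1.42.0, different normalizations, filters and sets of bases, and each library left out in turn. Tests were run on simulated data first. CON and TM dishes came from the same mouse, and deviations from group means correlated within mice with r = 0.163 in counts and 0.100 in depth, over genes. Gene positions and overlaps came from GENCODE vM21, not known to be the authors' annotation. Columns of the site table were given to libraries and checked against values per library in the study's supplementary table.

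All members were accounted for, called members were given per library, and the others by range. Members and lists were chosen with earlier results of these data known. The comparisons at shared bases, in introns, between genes of the same amino acid and of promoters were chosen after seeing the data. Matches to a motif were counted on both strands of RefSeq promoters. A leukocyte marker of the planned list is not reported here.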

Additional observations from a re-analysis of the deposited data

How the results depend on the processing

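Among single members, 209 of 244 alternative values in exonic depth and 164 of 204 in gene counts kept their direction and their side of the threshold, 27 and 29 crossed the threshold in the same direction and 8 and 11 turned direction, all of the latter in genes not called by that measure. The 7 genes Aars, Cars, Iars, Lars, Mars, Nars and Wars were called in exonic depth in every setting where they were tested, and Mars and Vars in every setting of the counts. In counts, DESeq2 called 3 cytosolic members and 362 genes, and DESeq2 with the mouse as a replicate block 2 and 401. With the replicate block edgeR called 1184 genes and limma 1326, and limma then called 1 mitochondrial member. The median log2 fold change of mitochondrial members in counts was 0.14 with DESeq2, 0.28 with DESeq2 and the replicate block, and 0.16 without a filter, over 16 genes in place of 4. In exonic depth, centring called 1442 genes and 1 mitochondrial member. Using only shared bases called 119 genes, of 1506 tested, and 5 cytosolic members of 9 tested, with a median of 1.32. The mitochondrial median was 0.27 without 3 prime UTR bases, 0.34 at a minimum of 1 base and 0.11 at 5. Leaving out 1 library gave 2 to 8 cytosolic members in counts and 7 to 13 in exonic depth, 412 to 847 genes in exonic depth, and mitochondrial medians of -0.54 to 0.42 in counts and 0.33 to 0.43 in exonic depth. The direction turned for Wars with the replicate block (0.0063 in edgeR, 0.017 in DESeq2), for Wars2 with DESeq2 (0.066) or without a filter (0.029), and, without 3 prime UTR bases, for Farsa (0.045) and Iars2 (-0.13). With 1 library left out the range crossed 0 in counts for Kars (-0.16 to 1.58), Wars (-0.50 to 0.53), Tars2 (-0.75 to 0.42), Wars2 (-1.31 to 0.79) and Yars2 (-0.27 to 0.41), and in depth for Farsa (-0.39 to 0.36), Ears2 (-0.52 to 0.41) and Iars2 (-0.12 to 0.34). Fewer genes or libraries entered some of these fits, and otherwise the cause was not tested. Low counts limit the first measure, since most members had under 100 counts per library, and the number of listed bases limits the second.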
